A study of Mus musculus with 17 samples.

Results

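Dusp4, Dusp6, Spry1, Spry2, Spry4, Spred1, Spred2, Etv1, Etv4 and Etv5 are transcriptional outputs of the ERK pathway. These 10 genes were chosen by name, because the study links Fibcd1 to ERK signaling, from a table of 47643 gene symbols, and all 10 passed the filter on low values that left 13305 genes to test. ERK, a kinase, lies at the end of a cascade from growth factor receptors through Ras, Raf and MEK. Active ERK induces genes that restrain it, so the level of these transcripts is widely used as a readout of recent ERK activity. The dual-specificity phosphatases Dusp4 and Dusp6 dephosphorylate ERK, in the nucleus and in the cytoplasm respectively. The Sprouty (Spry1, Spry2, Spry4) and Spred (Spred1, Spred2) proteins block signaling upstream of it, and Etv1, Etv4 and Etv5 are the PEA3 group of ETS transcription factors, which carry the signal to further genes.

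The transcripts were measured by RNA-seq in the muscle part of the diaphragm, from male C57BL/6J mice that were 4 months old. Control mice (n = 5) were free of tumors and received mock injections into the peritoneal cavity, and Control + rFibcd1 mice (n = 5) received rFibcd1 there, a recombinant C-terminal piece of mouse Fibcd1 with its fibrinogen-like domain. LLC mice (n = 3) carried tumors of Lewis lung carcinoma cells, a mouse cell line implanted subcutaneously in the flanks, and received mock injections, and LLC + rFibcd1 mice (n = 4) carried the same tumors and received rFibcd1. The mock solution was saline with albumin, and no group was left without injections or carries an altered allele. The labels call the libraries biological replicates, and each was read as 1 mouse. The study linked Fibcd1 to ERK in cultured mouse myotubes, through phosphorylated ERK protein shortly after rFibcd1 was added, an ERK inhibitor and siRNAs. The values here are RNA from diaphragm at the end of a week of injections, so measure, cells and time all differ.

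The values are TPM, transcripts per 1000000, a level per length that can be compared between genes. The depth recovered from them was 50.6 to 54.5 reads in units of 1000000 per sample, and each member value rests on 118.7 to 1512 estimated reads. Skeletal myofiber markers (12 of 12 tested) summed to between 52160 and 66640 TPM in every sample, which fits the labelled tissue. Mitochondrially encoded transcripts took 41.3% to 50.4% of TPM, the least in LLC mice (41.3% to 44.3%) and the most in Control + rFibcd1 mice (45.4% to 50.4%). Control + rFibcd1 replicate 2 stood apart on the second principal component of all genes tested, with a score of -57.8 where the other 16 samples lay between -22.1 and 20.7. As the tissue is bulk, fewer cells of a type and less RNA per cell cannot be told apart.

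The promoters of Dusp6 and Spry2 are shown first, because Capicua (Cic), a repressor that ERK inactivates, is known to control several of these genes and binds an octamer of the kind TGAATGAA or TCAATGAA. RefSeq promoter windows, from 250 bases before to 50 after a start on GRCm38.p6, were given for 7 of the 10 genes (9 windows). The forms TGAATGGA and TCAATGGA were added to the search after the sequences of the members had been seen. On either strand TCAATGAA occurred in the Spry2 window, and TCAATGGA occurred in the Dusp6 window at -24 and at 1, counting the annotated start as 0. The stretches below run 5′ to 3′ on the strand of each gene, with the octamers in capitals, and as both genes carry it on the opposite strand it reads there as its reverse complement.

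Dusp6, chr10:99263111-99263245, plus strand: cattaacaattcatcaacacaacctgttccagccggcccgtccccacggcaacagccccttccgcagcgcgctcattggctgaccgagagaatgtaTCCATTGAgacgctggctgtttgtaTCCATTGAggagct

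Spry2, chr14:105896820-105896939, minus strand: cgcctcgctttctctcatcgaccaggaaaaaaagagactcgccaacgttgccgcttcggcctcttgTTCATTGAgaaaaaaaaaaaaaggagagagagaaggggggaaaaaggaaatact

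Of 32851 promoter windows of that length, 2.03% held either of the first forms and 3.84% held any of the 4 forms. TGACTCA (AP-1, 5.2% of windows), TGACGTCA (CRE, 1.79%) and CCGGAAG (ETS, 8.86%) had no match in the windows of the members, which says only that these letters are not there. A match is a description of the sequence and not a measured binding site.

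Over the 17 mice Dusp6 was the most abundant member, at 15.3 ± 2.49 TPM (SD, n = 17), and Etv1 the least, at 0.975 ± 0.248 TPM (SD, n = 17). Between them lay Spry1 at 14.6 ± 1.68, Spry2 at 11.8 ± 1.74, Etv5 at 9.33 ± 1.15, Spred2 at 8.25 ± 0.716, Spred1 at 5.12 ± 0.927, Spry4 at 4.76 ± 1.11, Dusp4 at 3.21 ± 1.38 and Etv4 at 2.35 ± 0.342 TPM. Among neighbors in this order, Dusp6 and Spry1, Etv5 and Spred2, Spred1 and Spry4, and Dusp4 and Etv4 were closer than the larger of their SDs. Etv1 reached 1 TPM in 7 of 17 mice, so its differences on the log2(TPM + 1) scale used below understate its relative change. Relative to its mean, Dusp4 varied most (coefficient of variation 43%) and Spred2 least (8.68%).

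Differences between groups were tested with limma on log2(TPM + 1), with Benjamini-Hochberg adjustment over all 13305 genes and an adjusted p of 0.05 as the threshold for a call. The first question was whether rFibcd1 moved ERK outputs in mice without tumors. No member passed in Control + rFibcd1 versus Control, where 0% of all genes were called. Spry4, Dusp6 and Spred2 had an unadjusted p under 0.05 in limma, all with lower levels after rFibcd1, against 4.07% of all genes that were lower at that threshold, and Dunn's rank test gave 2 members, both lower, against 2.26% of all genes. In this comparison 9 of 10 members had a lower fitted mean, with a median log2 difference of -0.14 over the members and -0.060 over all genes.

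Spry4, a Sprouty inhibitor induced by FGF signaling, had the smallest p of the members. Its level was 6.66, 4.41, 4.40, 5.72 and 5.31 TPM in Control mice 1 to 5 and 4.91, 2.64, 3.54, 3.63 and 3.27 TPM in Control + rFibcd1 mice 1 to 5. Of the injected mice, 4 of 5 lay below all Control mice, and replicate 1 lay among them. The log2 difference was -0.46 ± 0.13 (SE), with a 95% interval from -0.74 to -0.18 and adjusted p = 0.927 in limma, and by unadjusted p the gene ranked 19 of 13305. Leaving out any mouse in turn kept the difference between -0.55 and -0.38, with adjusted p between 0.549 and 1. Without replicate 2, the library that stood apart, it was -0.38 ± 0.13.

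Dusp6 was measured at 15.4, 14.5, 16.9, 15.2 and 14.3 TPM in Control mice and at 16.8, 13.2, 10.1, 12.6 and 10.96 TPM in Control + rFibcd1 mice. Here too replicate 1 of the injected mice lay within the Control range and the other 4 lay below it. The log2 difference was -0.26 ± 0.10 (SE, adjusted p = 0.927 in limma), and -0.36 ± 0.077 without that replicate (adjusted p = 0.549). Dusp4 was measured at 4.07, 2.98, 3.32, 2.42 and 2.46 TPM in Control mice and at 3.32, 2.26, 2.07, 1.91 and 2.27 TPM in Control + rFibcd1 mice, again with replicate 1 the highest of the injected mice. Its groups overlapped, and the log2 difference was -0.26 ± 0.19 (SE, adjusted p = 0.927 in limma).

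Spred2, which recruits neurofibromin to inactivate Ras, was the only member whose groups did not overlap in this comparison, against 0.812% of all genes. It was measured at 8.30, 8.32, 8.85, 8.67 and 9.88 TPM in Control mice and at 8.06, 7.27, 7.57, 8.0 and 8.11 TPM in Control + rFibcd1 mice. The difference was small, at -0.15 ± 0.063 on the log2 scale (SE, adjusted p = 0.927 in limma), and under median-ratio scaling it was -0.082 ± 0.069. Spred1 was at 4.64 to 5.49 TPM in Control mice and at 3.38 to 5.80 TPM in injected mice, where replicates 3 and 4, at 3.62 and 3.38 TPM, lay below the rest. Those libraries also had the fewest genes at 1 TPM or more, 11562 and 11557, against 11798 to 12576 in the other tumor-free mice, and the part of this in the result was not tested.

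Spry1, Spry2 and the PEA3 factors overlapped between these groups. Spry1 was at 14.3 ± 2.09 TPM (SD, n = 5) in Control and 14.1 ± 0.501 TPM (SD, n = 5) in Control + rFibcd1 mice, and Spry2 at 12.7 ± 1.99 and 11.7 ± 2.10 TPM. Etv5 was at 9.13 ± 0.566 and 8.37 ± 0.975 TPM, Etv1 at 0.974 ± 0.089 and 0.847 ± 0.267 TPM, and Etv4 at 2.10 ± 0.357 and 2.29 ± 0.251 TPM. Etv4 was the member with a higher fitted mean after rFibcd1, with a log2 difference of 0.093 ± 0.088 (SE, adjusted p = 0.927 in limma). For these 5 genes the 95% intervals of the log2 difference together ran from -0.35 to 0.28.

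**Figure D1:**
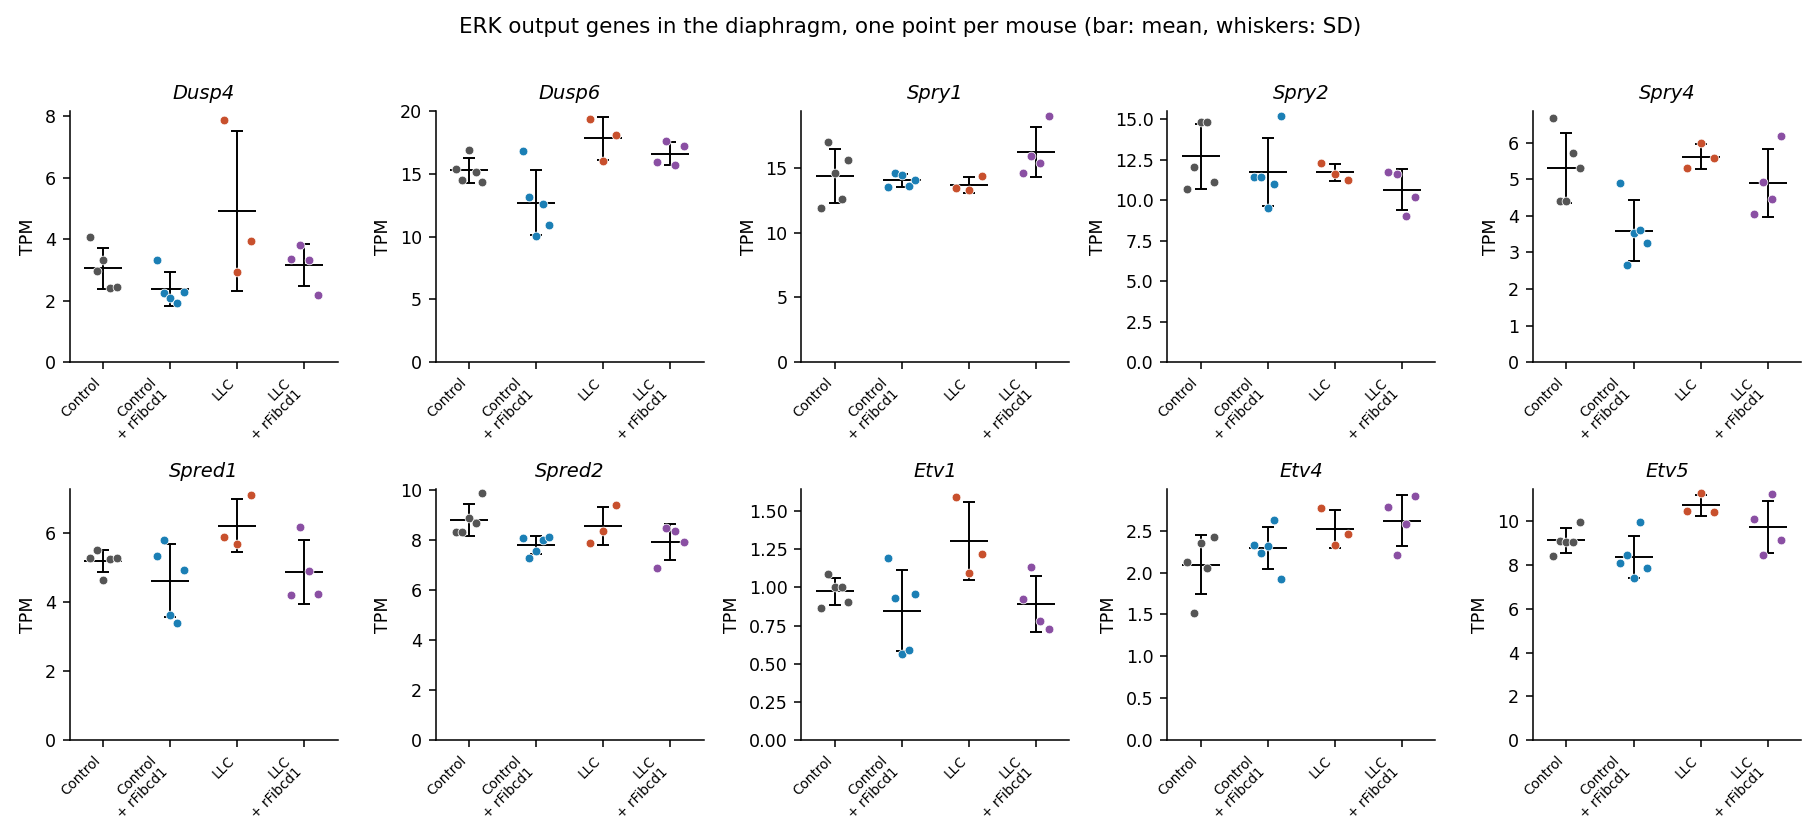
TPM of the 10 ERK output genes (vertical axes, each from 0) in the 4 groups, with a point for each mouse, a bar for the mean and whiskers for the SD. In Control + rFibcd1 mice Spry4 lay between 2.64 and 4.91 TPM against 4.40 to 6.66 TPM in Control mice, and LLC replicate 1 had 7.87 TPM of Dusp4 where the other LLC mice had 2.94 and 3.94 TPM.

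The second question was whether rFibcd1 moved these genes in mice with tumors. No member passed in LLC + rFibcd1 versus LLC, where 0.113% of all genes were called in limma. At an unadjusted p under 0.05 Spry1 was higher and Etv1 lower in limma, against 22.7% of all genes in either direction, and Dunn's test gave 1 higher and 2 lower, against 3.17% and 4% of all genes. Of the 10 members 8 had a lower fitted mean, with a median of -0.13 against -0.11 over all genes, so as a list they lay close to the genes in general.

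Spry1, a Sprouty inhibitor of receptor tyrosine kinase signaling, was the only member whose LLC groups did not overlap, against 14.6% of all genes. It was measured at 13.4, 13.3 and 14.4 TPM in LLC mice and at 14.6, 15.9, 15.4 and 19.0 TPM in LLC + rFibcd1 mice, so that every injected mouse lay above every mock-injected mouse with a tumor. The log2 difference was 0.22 ± 0.10 (SE, adjusted p = 0.216 in limma), and without LLC + rFibcd1 replicate 4 it was 0.15 ± 0.10. Control mice spanned 11.9 to 16.98 TPM, a range that holds 6 of these 7 values. The summed level of the endothelial markers (8 of 8 tested, none at 0) moved the same way, from 249.0 to 280.8 TPM in LLC and from 291.8 to 313.7 TPM in LLC + rFibcd1 mice, and its part in the result was not tested.

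Etv1 was measured at 1.59, 1.10 and 1.22 TPM in LLC mice and at 0.927, 1.13, 0.778 and 0.725 TPM in LLC + rFibcd1 mice, and only replicate 2 of the injected mice lay within the LLC range. The log2 difference was -0.28 ± 0.12 (SE, adjusted p = 0.209 in limma). Spred1 was measured at 5.87, 5.67 and 7.08 TPM in LLC mice and at 4.20, 6.17, 4.88 and 4.23 TPM in LLC + rFibcd1 mice, and again replicate 2 lay among the LLC mice. The log2 difference of Spred1 was -0.30 ± 0.15 (SE, adjusted p = 0.228 in limma). The summed T cell markers (6 of 6 tested, none at 0) were at 23.9 to 40.8 TPM in LLC mice and at 2.19 to 39.5 TPM in LLC + rFibcd1 mice, and the B cell markers (8 of 8 tested, none at 0) at 569.9 to 701.8 and 37.5 to 641.8 TPM. LLC + rFibcd1 replicate 3 held the top of both ranges, while replicate 2 had 10.98 TPM of T cell and 340.5 TPM of B cell markers. Replicate 2 had the largest macrophage and fibroblast sums of its group, at 424.2 and 1199 TPM. Whether any of these cells bear on Etv1 or Spred1 was not tested.

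Dusp4 was measured at 7.87, 2.94 and 3.94 TPM in LLC mice and at 3.36, 3.80, 3.31 and 2.20 TPM in LLC + rFibcd1 mice. The LLC mean rested on replicate 1, and the log2 difference of -0.43 ± 0.23 (SE, adjusted p = 0.253 in limma) was -0.097 ± 0.20 without it. In each group the mouse with the most Dusp4 also had the largest adipocyte marker sum (5 of 5 tested, none at 0). That sum was 1703 TPM in Control replicate 1 and 1796 TPM in Control + rFibcd1 replicate 1. It was 3796 TPM in LLC replicate 1 and 1773 TPM in LLC + rFibcd1 replicate 2. The part of these cells in the Dusp4 values was not tested. Dusp6 was measured at 19.4, 16.0 and 18.1 TPM in LLC mice and at 15.9, 17.6, 15.7 and 17.2 TPM in LLC + rFibcd1 mice, with overlap and a log2 difference of -0.094 ± 0.12 (SE, adjusted p = 0.616 in limma). Spry4 was measured at 5.29, 5.99 and 5.57 TPM in LLC mice and at 4.05, 4.92, 4.46 and 6.18 TPM in LLC + rFibcd1 mice. Of the injected mice 3 of 4 lay below all LLC mice, and the log2 difference was -0.18 ± 0.16 (SE, adjusted p = 0.454 in limma). Spry2, Spred2, Etv4 and Etv5 overlapped, with log2 differences from -0.13 to 0.038.

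With both injection contrasts averaged, no member passed in limma, and 0% of all genes did. At an unadjusted p under 0.05, 6 of 10 members were lower (Dusp4, Dusp6, Spry4, Spred1, Spred2 and Etv1) and none higher, against 18% of all genes that were lower and 2.24% that were higher. Spry4 had the smallest p, with a log2 difference of -0.32 ± 0.10 (SE, adjusted p = 0.244 in limma). This count depended on the scaling, since the median gene was at -0.087 in the deposited TPM. Without the mitochondrially encoded genes 4 members were lower, against 12.3% of all genes. Under median-ratio scaling 1 was lower and 1 higher, against 4.92% and 11.3%, and under quantile normalization none was lower and 1 was higher, against 3.8% and 10%. The interaction of tumor and injection had no member at an adjusted p under 0.05 and none at an unadjusted p under 0.05 in limma, where 8.58% of all genes had the latter, so no member was shown to respond differently to rFibcd1 with and without a tumor.

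**Figure D2:**
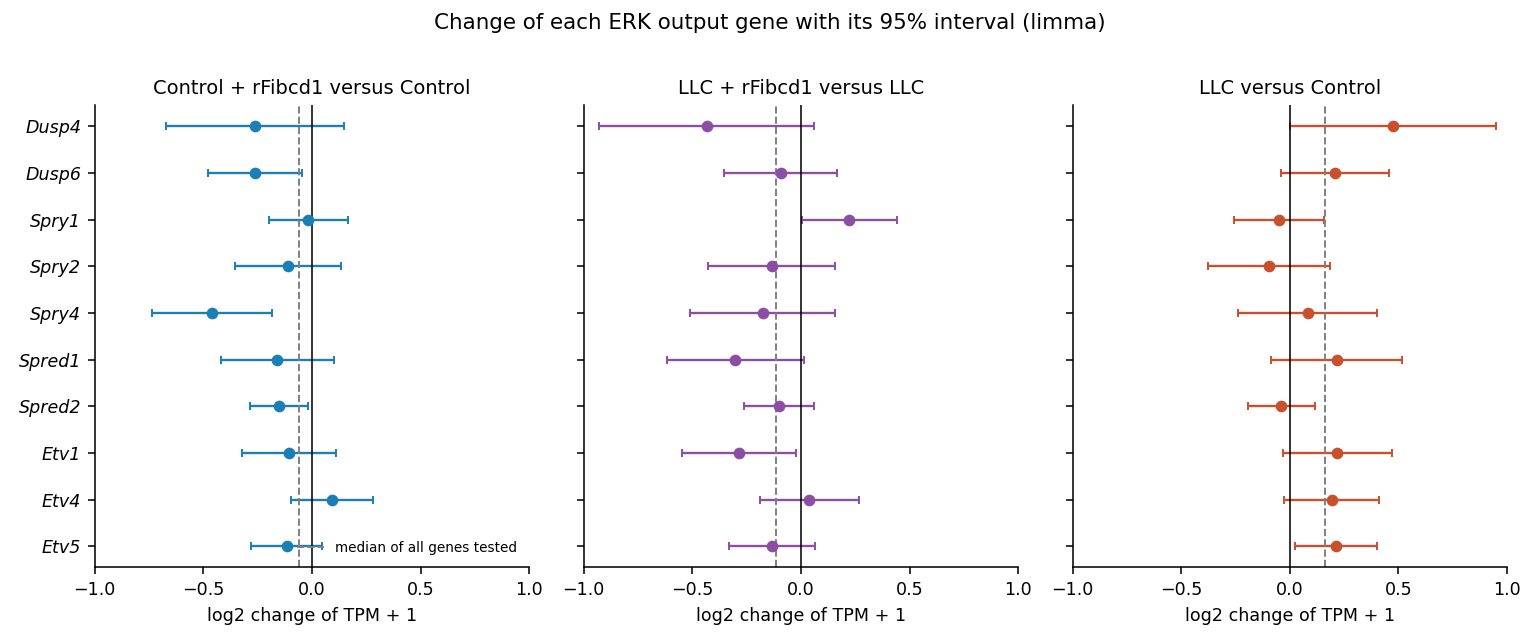
Log2 change of TPM + 1 (horizontal axes) of each ERK output gene in 3 comparisons, with points for the estimate and lines for the 95% interval from limma, and a dashed line at the median of all genes tested. In Control + rFibcd1 versus Control the intervals of Dusp6, Spry4 and Spred2 lay below 0, and in LLC versus Control those of Dusp4 and Etv5 lay above 0 while the median gene itself was at 0.16.

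The third question was whether the tumor moved these genes. In LLC versus Control no member passed in limma, where 35.8% of all genes did (24 genes without LLC replicate 3). Dusp4 and Etv5 had an unadjusted p under 0.05, both higher in LLC mice, against 40.1% of all genes that were higher at that threshold, and Dunn's test gave 1 higher, against 30.2% of all genes. Spred1, Etv1 and Etv5 did not overlap between the groups, against 40.2% of all genes. Averaged over both injections, Dusp6, Etv5 and Dusp4 rose with the tumor, 3 of 10 members against 47.3% of all genes called (40.9% higher). These calls hold for the deposited TPM, in which the median gene was 0.14 higher with the tumor. Under median-ratio scaling or quantile normalization none of the 3 calls was made. The 3 fitted differences stayed above 0, at 0.046 to 0.26 under the former and 0.0034 to 0.14 under the latter.

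Etv5, a PEA3 factor, was measured at 8.40, 9.12, 9.06, 9.07 and 9.99 TPM in Control mice and at 10.47, 11.3 and 10.4 TPM in LLC mice. Every LLC mouse lay above every Control mouse, with a log2 difference of 0.21 ± 0.089 (SE, adjusted p = 0.071 in limma). With rFibcd1 it was at 8.12, 8.48, 7.40, 9.97 and 7.89 TPM without and at 10.1, 8.45, 11.2 and 9.17 TPM with a tumor, where the groups overlapped. The averaged log2 difference was 0.20 ± 0.060 (SE, adjusted p = 0.0130 in limma), and it was 0.13 ± 0.070 without the mitochondrially encoded genes and 0.046 ± 0.081 under median-ratio scaling.

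Dusp6 had a log2 difference of 0.21 ± 0.12 in LLC versus Control (SE, adjusted p = 0.166 in limma), where the values given above overlapped. Averaged over injections its difference was 0.29 ± 0.079 (SE, adjusted p = 0.00862 in limma). The call held whichever of the 17 mice was left out, with adjusted p up to 0.0275, and it held without the mitochondrially encoded genes (0.22 ± 0.076, adjusted p = 0.0362). Under median-ratio scaling it was 0.13 ± 0.066 (adjusted p = 0.130). Among the mice with rFibcd1, where Dusp6 was at 10.1 to 16.8 TPM without a tumor and at 15.7 to 17.6 TPM with 1, 4 of 5 tumor-free mice lay below all tumor-bearing mice.

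Dusp4 was higher by 0.39 ± 0.15 on the log2 scale over both injections (SE, adjusted p = 0.0449 in limma). Its call was lost for 13 of the 17 mice when each was left out in turn and without the filter on low values (adjusted p = 0.0695), and without LLC replicate 1, at 7.87 TPM, the difference was 0.22 ± 0.12 (adjusted p = 0.154). In LLC versus Control it was 0.47 ± 0.22 (SE, adjusted p = 0.103 in limma), and 0.14 ± 0.19 without that mouse. The remaining members did not pass in the average over injections. Spry4 at 0.22 ± 0.10 and Etv4 at 0.16 ± 0.069 had adjusted p of 0.0808 and 0.0618 in limma, Spred1, Etv1 and Spry1 lay between 0.069 and 0.14, and Spry2 and Spred2 were at -0.11 and -0.013. Relative to the median gene the last 2 stood lowest, and under median-ratio scaling both fell with the tumor, by 0.27 for Spry2 (adjusted p = 0.0310 in limma) and by 0.17 for Spred2 (adjusted p = 0.0231).

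Markers of other cells differed along with the tumor. The myofiber markers summed to 60700 to 65730 TPM in Control and to 52160 to 55570 TPM in LLC mice, the B cell markers to 5.57 to 364.9 and 569.9 to 701.8 TPM, and the macrophage markers (8 of 8 tested, none at 0) to 152.8 to 272.3 and 367.8 to 451.6 TPM. The neutrophil markers (5 of 6 tested, none at 0) summed to 1.84 to 14.3 TPM in Control and 44.98 to 106.0 TPM in LLC mice, the T cell markers to 1.52 to 14.8 and 23.9 to 40.8 TPM, the fibroblast markers (6 of 6 tested, none at 0) to 703.8 to 979.1 and 1045 to 1088 TPM, and the proliferation markers (4 of 5 tested, none at 0) to 1.204 to 4.28 and 6.88 to 10.8 TPM. Control and LLC mice did not overlap in any of these 7 sums, whereas Control + rFibcd1 and LLC + rFibcd1 mice overlapped in each. The endothelial markers went the other way, with overlap between Control and LLC mice (233.9 to 259.6 and 249.0 to 280.8 TPM). Their sums in Control + rFibcd1 and LLC + rFibcd1 mice were apart (212.5 to 248.9 and 291.8 to 313.7 TPM). The mesothelium, adipocyte, nerve and smooth muscle sums overlapped in both comparisons. The part of any of these markers in the differences of the members was not tested.

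**Figure D3:**
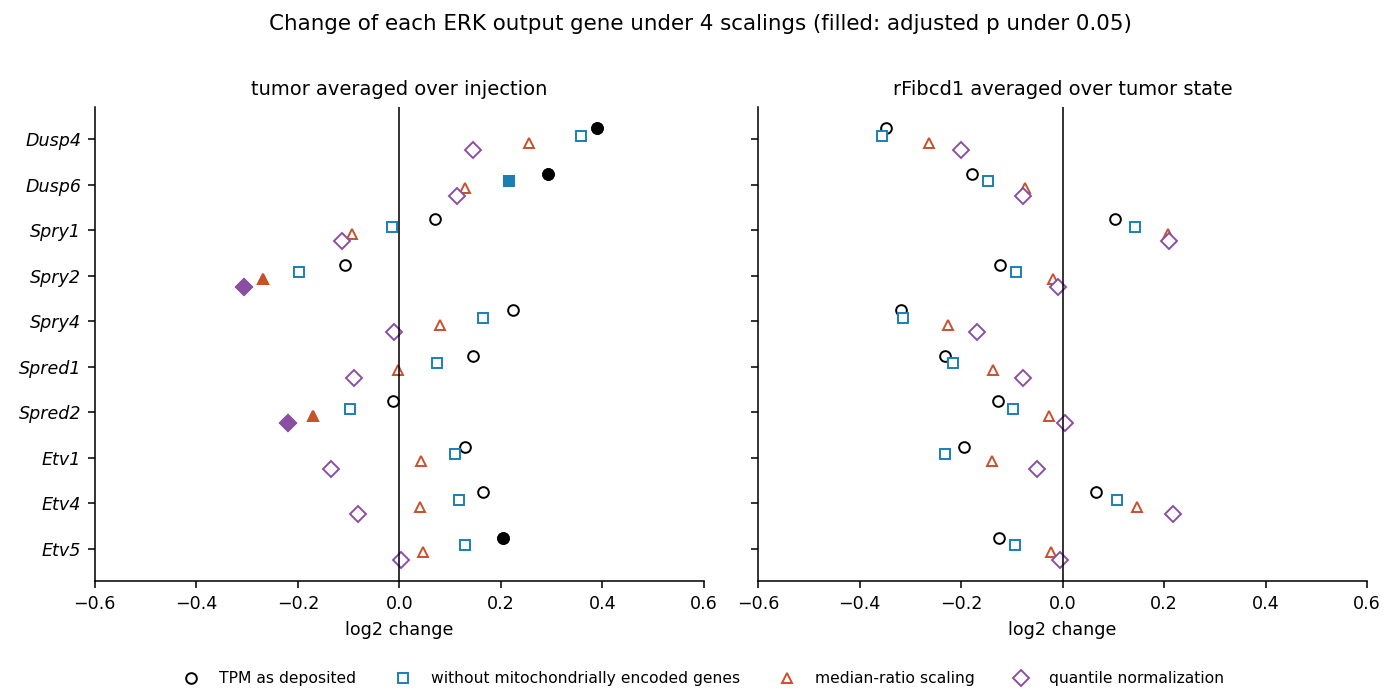
Log2 change of each ERK output gene (horizontal axes) with the tumor, averaged over injection, and with rFibcd1, averaged over tumor state, under the deposited TPM and 3 other scalings, with filled symbols for an adjusted p under 0.05. Dusp4, Dusp6 and Etv5 are filled for the tumor in the deposited TPM, and under median-ratio scaling and quantile normalization the filled symbols are Spry2 and Spred2, on the lower side.

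The rest of the pathway was read from 6 lists of 101 genes, of which 92 were tested. In the averaged tumor comparison 25 were called higher and 5 called lower at an adjusted p under 0.05 in limma, against 40.9% and 6.35% of all genes, while by the sign of the fitted difference alone 70 were above 0 and 22 below. The counts by list are of calls. Of the ligands 1 of 15 tested was higher and 3 lower, of the receptors 3 of 16 were higher, and of the adaptors and Ras genes 3 of 13 were higher and 1 lower. In the kinase cascade and scaffolds 5 of 11 were higher, among the effectors and regulators of the members 8 of 14, and among other output and feedback genes 5 of 23, with 1 lower. The median of the last list was 0.19 against 0.14 for all genes, and that of the ligands 0.060.

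Mapk3, which encodes the kinase ERK1, was called with the tumor. It was measured at 35.8, 36.4, 31.9, 33.1 and 31.1 TPM in Control mice and at 54.9, 43.4 and 66.5 TPM in LLC mice, with no overlap. In LLC + rFibcd1 mice it was measured at 42.3, 49.1, 39.3 and 37.4 TPM, of which 3 of 4 lay below all LLC mice. The log2 difference in LLC versus Control was 0.67 ± 0.12 (SE, adjusted p = 0.00840 in limma), and 0.53 ± 0.12 without LLC replicate 3, when the call was lost (adjusted p = 0.0654). In LLC + rFibcd1 versus LLC it was -0.37 ± 0.13 (SE, adjusted p = 0.192 in limma).

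In LLC versus Control 14 genes of the lists were called higher and 5 called lower, against 29.7% and 6.02% of all genes, and without LLC replicate 3 none was called. The largest rises were those of Myc, a transcription factor gene (0.92 ± 0.26, SE), the receptor Fgfr2 (0.88 ± 0.23), the ERK-activated kinase Rps6ka1 (0.83 ± 0.21), the integrin subunit Itgb3 (0.80 ± 0.23) and the phosphatase Dusp2 (0.73 ± 0.27), with adjusted p from 0.0128 to 0.0451 in limma, next to Mapk3. Exons of Fgfr2 overlap those of Ctbp2 in the annotation, and the gene lay at 0.17 to 2.82 TPM, so its value is uncertain. The call of Dusp2 was the least stable of these, since it was lost in 8 of 12 other settings, both other pseudocounts and every other scaling among them, and for 11 of the 17 mice when each was left out (adjusted p up to 0.180). Itgb3 lost its call under quantile normalization (0.47, adjusted p = 0.0521). The growth factors Kitl (-0.38 ± 0.11), Egf (-0.36 ± 0.11), Vegfa (-0.29 ± 0.10) and Fgf1 (-0.28 ± 0.067) and the kinase Rps6ka2 (-0.26 ± 0.089) were lower, with adjusted p from 0.0118 to 0.0374. Of these, Vegfa lost its call in 4 of 13 other settings and for 6 of 17 left-out mice, and Rps6ka2 in 5 of 13 settings and for 4 of 17 mice, while Kitl, Egf and Fgf1 lost theirs in 3 of 13 settings each, Kitl and Egf for 3 mice each and Fgf1 for 1. Egf overlaps the antisense gene 6330410L21Rik, which was at 0.641 to 1.53 TPM. Averaged over injections, the largest rises were those of Dusp2 (0.77 ± 0.18), Myc (0.67 ± 0.18), Rps6ka1 (0.62 ± 0.14), Itgb3 (0.62 ± 0.16), the urokinase receptor Plaur (0.61 ± 0.20) and Fgfr2 (0.53 ± 0.16), and Egf, Kitl, Epha4, Sos2 and Fgf1 fell by 0.13 to 0.32. Fgf1 lost this call for 7 of 17 left-out mice. Plaur and Fgfr2 lost theirs under quantile normalization (adjusted p = 0.0734 and 0.0753 in limma) and without LLC replicate 3 (0.0551 and 0.0570), and with a replicate block Plaur, Fgfr2, Sos2 and Fgf1 lost theirs (adjusted p = 0.0729, 0.0694, 0.0704 and 0.0736).

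No gene of the lists was called with rFibcd1 in limma, in either tumor state or averaged, and the 3 genes with the smallest p are given for each. In LLC + rFibcd1 versus LLC these were Vegfa, the main angiogenic growth factor, Ksr1, a scaffold of the cascade, and Rps6ka2, a kinase activated by ERK. Vegfa was measured at 127.6, 132.3 and 130.0 TPM in LLC mice and at 148.6, 172.6, 219.1 and 202.2 TPM in LLC + rFibcd1 mice, with no overlap. Its log2 difference was 0.50 ± 0.11 (SE, adjusted p = 0.0881 in limma). Ksr1 was at 29.0 to 33.2 and 35.5 to 43.1 TPM (0.28 ± 0.067, adjusted p = 0.124) and Rps6ka2 at 46.9 to 56.9 and 62.0 to 66.7 TPM (0.32 ± 0.093, adjusted p = 0.164). The groups of all 3 genes were thus apart, as were those of 14.6% of all genes. The endothelial marker sums were apart in the same direction (249.0 to 280.8 and 291.8 to 313.7 TPM), and their part in the result was not tested.

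In tumor-free mice the smallest p belonged to Fgf1, Vegfa and the receptor gene Kit. Vegfa was measured at 144.4, 146.6, 165.9, 165.0 and 175.5 TPM in Control mice and at 132.3, 126.9, 136.6, 131.9 and 148.2 TPM in Control + rFibcd1 mice, a log2 difference of -0.23 ± 0.087 (SE, adjusted p = 0.927 in limma) that ran opposite to the one in LLC mice. The interaction for Vegfa was 0.73 ± 0.14 (SE, adjusted p = 0.0834 in limma) and missed the threshold. Those of Ksr1 and Rps6ka2 were 0.40 ± 0.087 and 0.48 ± 0.12 (adjusted p = 0.118 and 0.166). Fgf1 differed by -0.24 ± 0.058 and Kit by -0.36 ± 0.14 in tumor-free mice (adjusted p = 0.927 for both), and with both states averaged the smallest p were those of Kit (-0.46 ± 0.11), Rps6ka1 (-0.42 ± 0.14) and Igf1r (-0.17 ± 0.055), each with an adjusted p of 0.244. Kit was at 1.31 to 2.22 TPM over the mock-injected mice and at 0.614 to 1.49 TPM over the rFibcd1-injected mice.

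**Figure D4:**
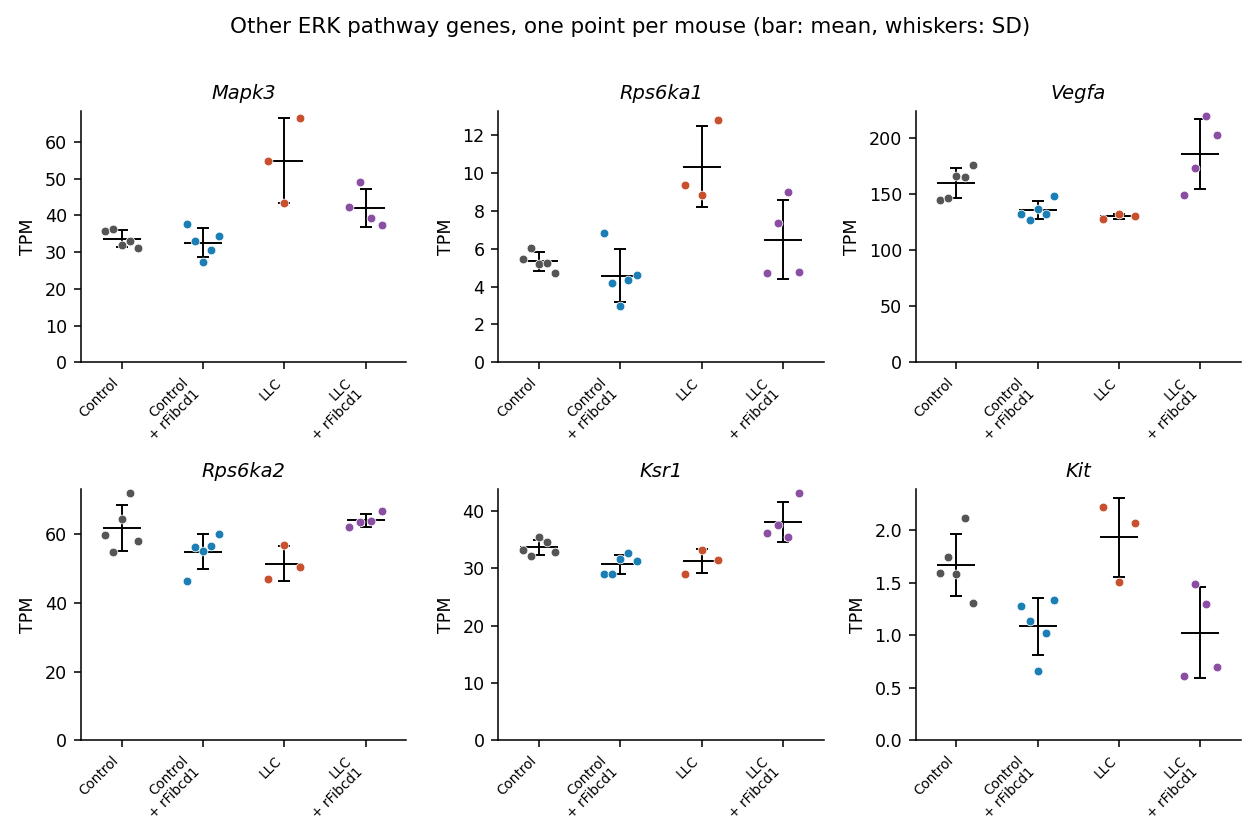
TPM of 6 other ERK pathway genes (vertical axes, each from 0) in the 4 groups, with a point for each mouse, a bar for the mean and whiskers for the SD. Mapk3 reached 43.4 to 66.5 TPM in LLC mice against 31.1 to 36.4 TPM in Control mice, and Vegfa, Rps6ka2 and Ksr1 were higher in every LLC + rFibcd1 mouse than in every LLC mouse.

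The genes whose log2(TPM + 1) followed each member most closely over the 17 mice are given as a description, since all points share tissue, groups and scaling. For the phosphatases they were Dolk, Slc22a3 and H1fx with Dusp4 (Pearson r = 0.957, 0.955 and 0.951) and Efs, Ppp1r16a and Polg with Dusp6 (0.921, 0.900 and 0.885). For the Sprouty genes they were Slc9a3r2, Rusc2 and Rps6kl1 with Spry1 (0.843, 0.807 and 0.778), C1qtnf2, Ubox5 and Abca8a with Spry2 (0.836, 0.835 and 0.818), and Sertad1, Zswim3 and Nab2 with Spry4 (0.852, 0.846 and 0.836). Spred1 was followed by Ssr3, Tm9sf3 and Man1a2 (0.965, 0.961 and 0.961) and Spred2 by Cstf2t, D17H6S53E and Prss23 (0.764, 0.746 and 0.744). Etv1 was followed by Tgfbr3, Sema5a and Chrdl1 (0.956, 0.944 and 0.944), Etv4 by Col20a1, Gpi1 and Alkbh3 (0.781, 0.703 and 0.702) and Etv5 by Tubgcp2, Vcp and Fam195b (0.830, 0.799 and 0.779). The members themselves were left out of this search, so how closely they followed each other was not examined.

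On GRCm38 (GENCODE vM21, positions from 1, all protein-coding) Dusp4 lies at chr8:34807297-34819894, Dusp6 at chr10:99263231-99267489, Spry1 at chr3:37639947-37644598, Spry2 at chr14:105891947-105896819 and Spry4 at chr18:38586247-38601415. Spred1 lies at chr2:117121374-117182279, Spred2 at chr11:19924375-20024026, Etv1 at chr12:38779380-38870484, Etv4 at chr11:101769742-101785371 and Etv5 at chr16:22381309-22439719. The annotated genes on the opposite strand of Spry1 (Gm42922) and Spry4 (Gm27369 and Gm27804) were listed at 0 TPM in all 17 mice.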

How the data were processed

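RNA-seq was performed on the diaphragm of 17 mice. The authors trimmed and filtered paired reads and, in CLC Genomics Workbench, aligned these to the mouse genome (GRCm38, mm10 in the submitters' processing notes) and counted reads of each gene. They deposited TPM, in which read counts are divided by gene length and a sample adds up to 1000000 with mitochondrially encoded genes included, so a smaller mitochondrial share raises the TPM of the other genes. The labels and the study's methods name different library kits, and whether counting used strand is not given in the sources used here. The labels name no batch. Groups and replicate numbers came from the sample titles and descriptions, and 0 columns were left without a sample.

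Depth was estimated from the steps between low TPM values and GENCODE vM21 exon lengths (94.7% of symbols matched), where 82.6% to 85.7% of low values per sample fell within 0.02 of a whole read. The estimate covers counting error only and entered no test.

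Genes that reached 1 TPM in 3 samples or more were tested, 1 TPM was added and log2 values of all 17 samples were fitted by group with limma 3.58.1 in R 4.3.3 (trended empirical Bayes, 13 residual degrees of freedom, two-sided tests, Benjamini-Hochberg adjustment). The study used Kruskal-Wallis and Dunn tests with a cutoff on p and fold change, a combination that was not run here. Its parts were tried apart, Dunn's test with Benjamini-Hochberg adjustment, and the fold cutoff with an unadjusted p under 0.05 from limma. The fit was tested on simulated data with known changes. p-values measure the spread between these mice.

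The members, gene lists and tests were chosen with earlier results of these data known. All 10 members are reported, and 1 other gene of the rule is not reported here. Of the other ERK pathway genes, those called are named, up to 6 by size in each direction. Where none was called, the 3 of smallest p are named, and Mapk3 always. For each member the 3 genes of highest Pearson r outside the members are named. Figures were drawn with matplotlib 3.10.9.

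Alternatives were other pseudocounts and filters, scalings by median ratio, by quantiles or without mitochondrially encoded genes, no trend, sample weights, a replicate block, Dunn's test, fits of only the groups compared, and leaving out each mouse.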

Additional observations from a re-analysis of the deposited data

Results flagged for a closer look

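Dixon's gap test was applied to the TPM of the 10 members in the 3 groups of 4 or 5 mice, 30 tests in all, where chance marks about 1 in 20. It marked 2 values. Dusp4 in Control + rFibcd1 replicate 1 was 3.32 TPM, 1.05 TPM above the next mouse in a range of 1.41 TPM. That mouse also had the highest Dusp6, Spry4 and Etv1 of its group, and without it the log2 differences from Control were -0.36 for Dusp4, -0.36 for Dusp6 and -0.55 for Spry4 (adjusted p = 0.549 in limma for each). Spred1 in Control replicate 3 was 4.64 TPM, 0.607 TPM below the next mouse in a range of 0.847 TPM. No member differed in its response to rFibcd1 between tumor-free and tumor-bearing mice at an adjusted p under 0.05 in limma.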

How the results depend on the processing

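For the members and the named pathway genes, 99 log2 changes were followed through the alternatives. They kept direction and side of the threshold in 2601 of 2792 comparisons of a change with a setting. In the rest 109 lost and 20 gained a call and 62 turned sign. Part of this was fixed beforehand. Dunn's test and the fold cutoff used the log2 change of the main fit, and leaving out a mouse of a group not compared leaves that change as it was. The count is therefore no measure of stability. Of the members, 0 were called in LLC versus Control, and 3 with sample weights (Dusp4, Etv1 and Etv5, all higher), 1 with only the groups compared (Etv5, higher), 1 under median-ratio scaling and 1 under quantile normalization (Spred2, lower), and 0 to 1 when a mouse was left out. The first 4 of these settings called 51.2%, 39.3%, 29.7% and 35.2% of all genes. In the averaged tumor comparison 3 were called, 1 without the mitochondrially encoded genes (Dusp6, against 39.2% of all genes called), 5 with sample weights (against 52.6%), 2 without a filter (Dusp6 and Etv5) and 2 to 4 when a mouse was left out. Under median-ratio scaling and quantile normalization 2 were called, Spry2 and Spred2, in place of Dusp4, Dusp6 and Etv5, against 39.2% and 41.8% of all genes. By construction these scalings take out the shift of the median gene, which for the tumor average went from 0.14 to -0.0078 and -0.062, and the share of all calls that were higher went from 86.6% to 49.1% and 34.9% (69.0% without the mitochondrially encoded genes). For LLC versus Control that share was 83.2%, 48.5%, 32.2% and 62.9%. No member was called with rFibcd1 or in the interaction under any alternative run.

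Of all genes 4759 were called in LLC versus Control, 0 by Dunn's test with adjusted p, 1690 at an unadjusted p under 0.05 in limma with the fold cutoff of the study and 24 to 5254 when a mouse was left out, the fewest without LLC replicate 3. In LLC + rFibcd1 versus LLC 15 were called, and 2 with either other pseudocount, 48 without a filter, 9 at 5 TPM, 7 under median-ratio scaling, 6 without the mitochondrially encoded genes, 56 with sample weights, 0 with only the groups compared, 0 by Dunn's test, 544 at that p and fold cutoff and 0 to 88 when a mouse was left out (0 without LLC replicate 1 or LLC + rFibcd1 replicate 1 or 4, 88 without LLC + rFibcd1 replicate 3). In Control + rFibcd1 versus Control 0 were called, and 8 at that p and fold cutoff. The average of rFibcd1 gave 0, and 1 without a filter and 0 to 1 when a mouse was left out. The interaction gave 0, and 1 without a filter, 1 under median-ratio scaling, 1 under quantile normalization, 12 with sample weights and 0 to 11 when a mouse was left out. Of the ERK pathway genes 19 were called in LLC versus Control, and 30 with sample weights, 0 by Dunn's test, 8 at that p and fold cutoff and 0 to 21 when a mouse was left out. In LLC + rFibcd1 versus LLC 0 were called, and 4 at that p and fold cutoff, and in the interaction 0, and 0 to 1 when a mouse was left out. Where no construction is named, the cause was not tested.

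Under median-ratio scaling the sign turned for Spry4 (-0.091) in LLC versus Control, for Dusp6 (0.042) and Spred2 (0.027) in LLC + rFibcd1 versus LLC, for Spry1 (0.059) and Mapk3 (0.027) in Control + rFibcd1 versus Control, for Spry1 (-0.094) and Spred1 (-0.0022) for the tumor averaged over injection, for Spry2 (0.035) and Etv5 (0.042) in the interaction. Under quantile normalization the sign turned for Dusp6 (-0.0070), Spry4 (-0.23), Spred1 (-0.095), Etv1 (-0.10), Etv4 (-0.13) and Etv5 (-0.043) in LLC versus Control, for Dusp6 (0.043), Spry2 (0.037), Spry4 (0.051), Spred2 (0.096) and Etv5 (0.042) in LLC + rFibcd1 versus LLC, for Spry1 (0.033) in Control + rFibcd1 versus Control, for Spred2 (0.0046) for rFibcd1 averaged over tumor state, for Spry1 (-0.11), Spry4 (-0.011), Spred1 (-0.089), Etv1 (-0.14) and Etv4 (-0.080) for the tumor averaged over injection, for Spry2 (0.092), Spred1 (0.012), Etv4 (0.10) and Etv5 (0.093) in the interaction. Without the mitochondrially encoded genes the sign turned for Spry4 (-0.0097) in LLC versus Control, for Spry1 (0.00045) in Control + rFibcd1 versus Control, for Spry1 (-0.015) for the tumor averaged over injection, for Spry2 (0.014) and Etv5 (0.022) in the interaction. With sample weights the sign turned for Spry1 (0.014) in Control + rFibcd1 versus Control, for Etv5 (0.0030) in the interaction. Leaving out a mouse turned the sign of Spry2 in the interaction (-0.088 to 0.068), Etv5 in the interaction (-0.081 to 0.043), Spry1 in LLC versus Control (-0.11 to 0.0092), Spry1 in Control + rFibcd1 versus Control (-0.076 to 0.043), Etv4 in the interaction (-0.096 to 0.017), Spred2 for the tumor averaged over injection (-0.044 to 0.016), Mapk3 in Control + rFibcd1 versus Control (-0.10 to 0.0076), Spred2 in LLC versus Control (-0.10 to 0.010), Dusp4 in the interaction (-0.42 to 0.17) and Etv4 in LLC + rFibcd1 versus LLC (-0.0024 to 0.094).

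Same-numbered mice of different groups did not deviate together. Over 22 pairs of equal number, 4 had a correlation of deviations above 0.1, with a range from -0.459 to 0.485, and 1 of 17 samples correlated best with its own number, so the numbers were not taken to pair the samples. With a replicate block 5 genes of all and 0 of the ERK pathway were called in LLC versus Control, 0 of all in LLC + rFibcd1 versus LLC, and 2 members (Dusp6 and Etv5, against 32.2% of all genes) in the averaged tumor comparison, where Spred2 turned to 0.016.

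Groups of 3 to 5 mice limit what can be called, and at 1 TPM a gene such as Etv1 has its relative change compressed by the pseudocount.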
